A study of Mus musculus with 6 samples.

Results

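The genes described here take heme apart, store the iron it releases, move iron in and out of cells, and make or bind siderophores. There were 10 of them: Hmox1, Hmox2, Blvra, Blvrb, Fth1, Ftl1, Tfrc, Slc40a1, Bdh2 and Lcn2. Probes were taken where the array's gene name was one of these symbols or where the probe's RefSeq transcript belonged to one of them, which gave 21 probes of 150305 on the array. Of these, 19 were among the 105922 probes that were well above background on all 3 arrays of at least 1 genotype and were therefore tested. Bdh2 was chosen by its signal, which was lower in the knockout, so its values are a description and carry no test. The study hybridised total RNA from the prefrontal cortex of male mice of the outbred ICR stock, 3 to 4 months of age, to one-colour Agilent arrays that carry coding, long non-coding and circular RNA probes. There were 3 Nrf2 knockout samples and 3 wild type samples, with 1 array each. Both groups shared the strain, the sex, the age range and the tissue, and no treatment was named for either. The labels do not say which part of the gene was deleted, in which cells, or whether each sample came from its own animal, so p-values cover only the scatter among these samples, and that scatter may be technical.

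Heme oxygenases open the heme ring to biliverdin, carbon monoxide and free iron, and biliverdin reductases turn biliverdin into bilirubin. The released iron is held in ferritin, a shell of heavy and light chains, or leaves the cell through ferroportin, the product of Slc40a1. The transferrin receptor brings iron in, and iron regulatory proteins bind the mRNAs of ferritin, ferroportin and the transferrin receptor to set their translation or stability. Mammalian siderophores are small molecules that bind iron. Bdh2 has been described as making one of them, and Lcn2, a secreted lipocalin that neutrophils and reactive astrocytes also release, binds siderophores. Nrf2, encoded by Nfe2l2, is a transcription factor that turns on Hmox1, the ferritin genes, Slc40a1 and Blvrb in many cell types under oxidative stress.

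Each gene was read by a probe of Agilent's catalogue and by a custom probe of the same array, and Bdh2 had a further catalogue probe. Probes are 60 bases long. The sequences that matter for reading Bdh2, Blvrb and Lcn2 are printed here, because in these genes the probes share bases or differ in what they report. Of the Bdh2 probes, 2 share 57 bases, the catalogue one starting at base 1014 of the transcript, at chr3:134967306-134967365 on the plus strand of mm9, and so read the same site; a stretch of 30 shared bases stands on the first line. The remaining Bdh2 probe lies upstream, from base 496 of the transcript, and matches bases spread over chr3:134954050-134958234 (mm9, plus strand), a span of 4185 bases, so it crosses at least 1 exon junction. The 2 Blvrb probes overlap over 44 bases and differ there at G50A and T53C, with positions counted from 1 at the 5′ end of the catalogue probe (chr7:28250924-28250983, mm9, plus strand), the catalogue base first and the custom base last; these bases are in capitals in stretches of 30. The 2 Lcn2 probes share 22 bases, in capitals, and the catalogue probe (chr2:32241037-32241281, mm9, minus strand) also spans a junction.
Bdh2, shared by the 2 probes of 1 site: ctcttctgaagctgtggtaaataaatcaaa
Bdh2, junction probe: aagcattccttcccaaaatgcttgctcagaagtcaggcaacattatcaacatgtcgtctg
Blvrb, catalogue probe, bases 31 to 60: tcaataaatttttagccaaGagTttcaaat
Blvrb, custom probe, bases 15 to 44: tcaataaatttttagccaaAagCttcaaat
Lcn2, catalogue probe: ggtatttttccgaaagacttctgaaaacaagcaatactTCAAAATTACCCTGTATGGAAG
Lcn2, custom probe: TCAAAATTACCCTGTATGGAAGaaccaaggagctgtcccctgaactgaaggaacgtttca
The paired probes of Hmox2 and Fth1 likewise share 59 and 57 bases, so for those genes too the pair reads 1 site. The pairs of Hmox1, Blvra, Ftl1, Tfrc and Slc40a1 share no run over 7 bases. No other probe on the array shares a run of 25 bases with any of the 21.

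All levels below are log2 of the processed signal minus the array's 75th percentile of it, so a level of 0 is the signal at that percentile, and levels are not compared between probes. The share of probes well above background ranged over the arrays from 71.0% to 73.4%. Nfe2l2 itself followed the labels: its 2 catalogue probes were not well above background on any knockout array and were at least 81.5-fold and 65.6-fold lower in the knockout than in wild type (limma, adjusted p = 0.00907 and 4.79e-06). A custom probe of the same transcript was well above background on all 6 arrays, with a difference of -4.08 (limma adjusted p = 6.13e-04), and a custom probe of the non-coding transcript differed by -0.34 with overlapping groups (limma adjusted p = 0.393). The labels do not name which of these sites were deleted. The arrays came from 2 slides, as the shared scan times in the file headers show. Knockouts 2 and 3 were on slide 2, and knockout 1 was on slide 1 with all wild types. The first principal component, 52.2% of the variance over tested probes, set the 2 arrays of slide 2 apart from the other 4. On the second component the array of wild type 1 was separate from the rest; it held 186 outlier-flagged probes, while each of the other 5 held 13 to 36. Values with the slide as a block, which rest on knockout 1 against the wild types, are therefore given beside the results whose sign or size they move most. All 6 markers of excitatory cortical neurons were detected, at summed linear levels of 281 to 345 on the knockout arrays and 270 to 298 on the wild type arrays.

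Bdh2 read about 0.93 to 0.98 log2 units lower in the knockout at 1 of its 2 sites, and its other site was too dim to be tested. Slc40a1 read 0.21 to 0.31 higher in the knockout, and Blvrb and Lcn2 read lower with arrays of the same genotype far apart. In the 9 genes other than Bdh2, 17 probes were tested, and 0 passed an adjusted p of 0.05, by limma's moderated test with Benjamini-Hochberg adjustment over all tested probes. The background rate of that call was 0.00944% of all tested probes, or 10 of 105922. Their adjusted p-values lay between 0.314 and 0.991. Without adjustment, p was under 0.05 for 2 probes, beside 15.1% of all tested probes. They were Slc40a1's catalogue probe, higher in the knockout as were 6.11% of all, and Blvrb's custom probe, lower as were 8.94%. In 3 probes the groups did not overlap, beside 21.6% of all tested probes; 1 was higher in the knockout (11.1% of all) and 2 were lower (10.4%). The estimates were below 0 for 9 probes and above 0 for 8, with a median of -0.07, against 0.03 over all tested probes. In 15 of the 17 the 95% interval of the difference lay within 1 log2 unit of 0, the exceptions being Blvrb's catalogue probe and Lcn2's custom probe.

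**Figure D1:**
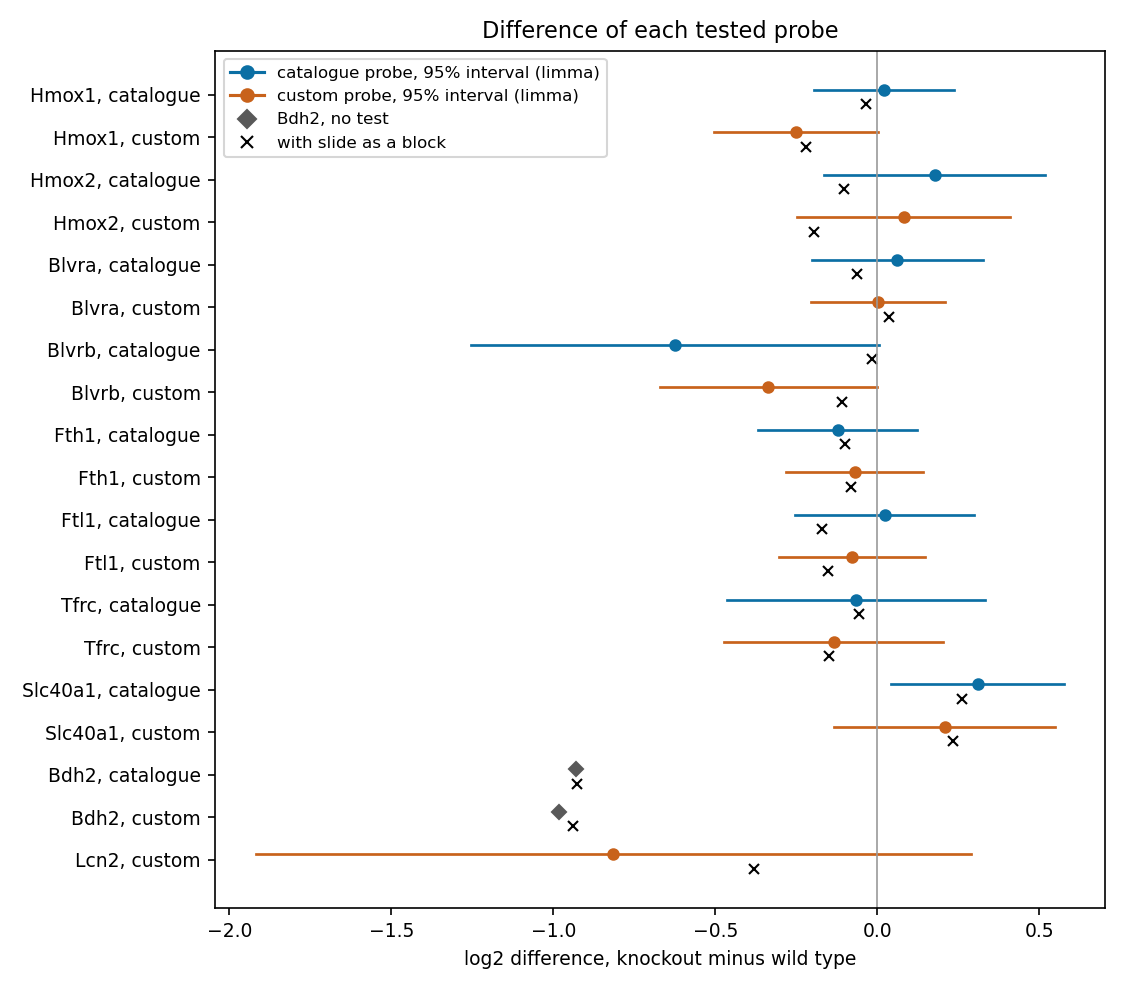
Difference between knockout and wild type in log2 units (x axis) for each of the 19 tested probes (rows). Circles are limma estimates with their 95% intervals, diamonds are Bdh2 without a test, and crosses are the same differences with the slide as a block; the Blvrb crosses lie near 0, at -0.02 and -0.11, and the Bdh2 crosses stay near -0.93.

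Hmox1, the inducible heme oxygenase, gave different readings from its 2 probes. Its catalogue probe had levels of 0.51, 0.61 and 0.57 in knockouts 1 to 3, against 0.50, 0.49 and 0.65 in wild types 1 to 3. These groups overlapped, and the difference was 0.02 (SE 0.09, 95% interval -0.20 to 0.24, limma adjusted p = 0.917), or -0.03 with the slide as a block. Its custom probe had levels of 1.05, 1.10 and 0.91 in the knockouts, against 1.27, 1.15 and 1.39 in the wild types. Here every knockout array was below every wild type array. The means were 1.02 ± 0.10 in the knockouts and 1.27 ± 0.12 in the wild types (SD, n = 3 each), a difference of -0.25 (SE 0.11, 95% interval -0.50 to 0.00, limma adjusted p = 0.333) that did not pass the threshold. With the slide as a block it was -0.22. Across the 6 arrays the probes correlated at r = 0.214.

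Hmox2, the constitutive heme oxygenase of brain, had levels of 4.16, 4.59 and 4.57 in the knockouts on its catalogue probe, against 4.18, 4.23 and 4.37 in the wild types. The 2 knockouts on slide 2 were high and knockout 1 was the lowest of all 6. The difference was 0.18 (SE 0.14, limma adjusted p = 0.524), and with the slide as a block it turned to -0.10. The custom probe, 59 of whose bases are the same, differed by 0.08 and, with the slide as a block, by -0.19.

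Biliverdin reductase A, encoded by Blvra, had estimates near 0 on both probes. The custom probe had levels of 3.87, 3.82 and 3.82 in the knockouts, against 3.84, 3.75 and 3.91 in the wild types, a difference of 0.00 (95% interval -0.20 to 0.21, limma adjusted p = 0.991). On the catalogue probe the difference was 0.06 (SE 0.11, limma adjusted p = 0.777), and -0.06 with the slide as a block.

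Blvrb encodes biliverdin reductase B, a flavin reductase that also acts on biliverdin. Its catalogue probe had levels of 1.09, 0.09 and 0.27 in the knockouts, against 0.96, 1.12 and 1.24 in the wild types. Knockout 1 lay inside the wild type range and knockouts 2 and 3 lay below it, so the split followed the slide as well as the genotype. The difference was -0.62 (SE 0.26, 95% interval -1.25 to 0.01, limma adjusted p = 0.333), and -0.02 (95% interval -0.39 to 0.36) with the slide as a block. Without knockout 1 the catalogue probe was the single probe of the 17 to pass, at -0.93 (SE 0.12, limma adjusted p = 0.0097), but slide and genotype cannot be told apart in those 5 arrays, where 12.8% of all tested probes passed. On the custom probe the levels were 1.20, 0.80 and 0.91 in the knockouts, against 1.14, 1.33 and 1.44 in the wild types. That probe showed the same order, with a difference of -0.34 (SE 0.14, limma unadjusted p = 0.049, adjusted p = 0.331) and -0.11 with the slide as a block. The probes correlated at r = 0.96 over the 6 arrays although they differ at 2 bases of their overlap.

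**Figure D2:**
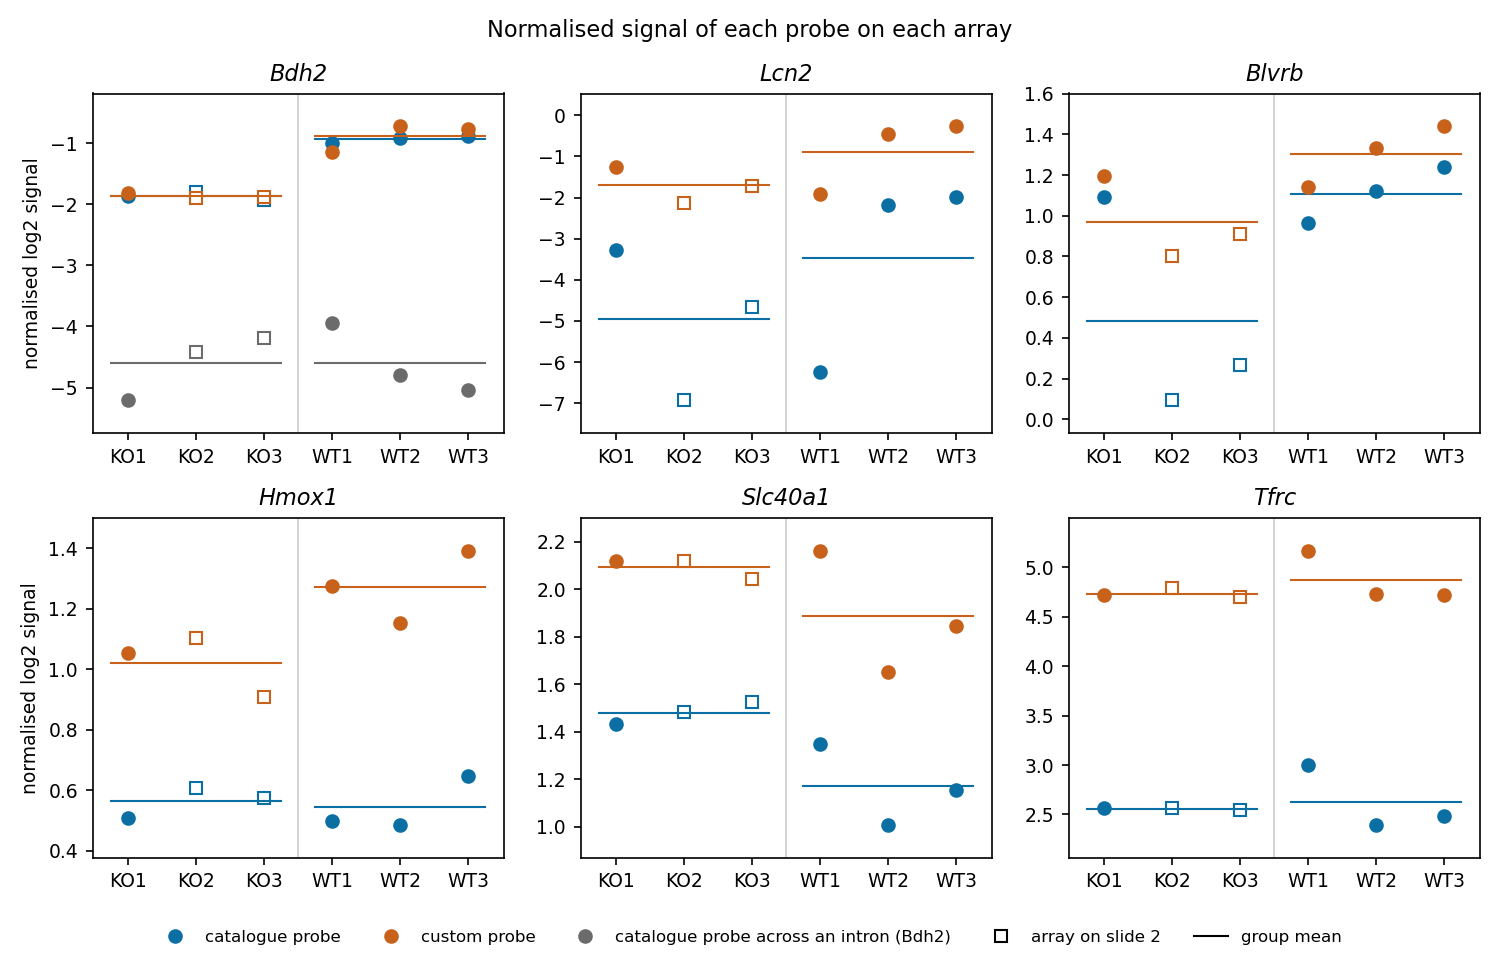
Normalised log2 signal (y axis) of each probe of 6 genes on the 3 knockout (KO) and 3 wild type (WT) arrays (x axis); points are arrays, open squares are arrays on slide 2, and horizontal lines are group means. The 2 Bdh2 probes of 1 site separate the genotypes. The junction probe does not, but it was too dim to be tested. Blvrb is low on the 2 open squares only.

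The ferritin heavy chain gene, Fth1, encodes the subunit that oxidises iron for storage. Its catalogue probe had levels of 8.66, 8.67 and 8.59 in the knockouts, against 8.77 and 8.76 in wild types 2 and 3. Wild type 1 was left out of this probe's fit because the scanner software flagged its spot as an outlier, at a level of 7.06. The 3 knockout values were below both wild type values, and the difference was -0.12 (SE 0.10, limma adjusted p = 0.53). On the custom probe, which shares 57 bases and lost no array, the levels were 8.55, 8.60 and 8.53 in the knockouts, against 8.54, 8.66 and 8.69 in the wild types. These overlapped, with a difference of -0.07 (SE 0.09, limma adjusted p = 0.685).

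Ftl1, the ferritin light chain, was read at separate sites. The custom probe had levels of 5.67, 5.74 and 5.82 in the knockouts, against 5.80, 5.92 and 5.74 in the wild types. The difference was -0.08 (SE 0.09, limma adjusted p = 0.674), and -0.15 with the slide as a block. On the catalogue probe it was 0.02 (limma adjusted p = 0.927), and -0.17 with the slide as a block. The groups overlapped on both probes.

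**Figure D3:**
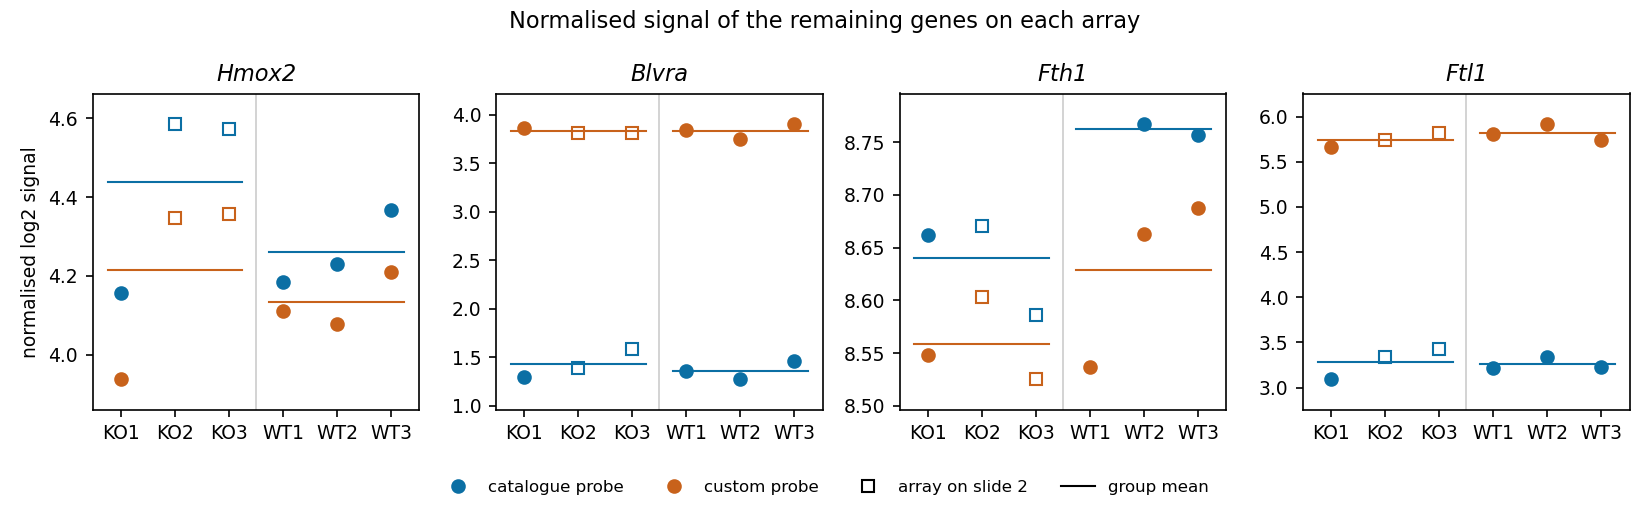
Normalised log2 signal (y axis) of the probes of Hmox2, Blvra, Fth1 and Ftl1 on each knockout (KO) and wild type (WT) array (x axis), with group means as lines and slide 2 as open squares. The flagged Fth1 catalogue spot of wild type 1 is not drawn, and the y axes differ, with Fth1 spanning 8.53 to 8.77.

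Tfrc, the transferrin receptor through which cells take up transferrin-bound iron, had levels of 4.72, 4.79 and 4.69 in the knockouts on its custom probe, against 5.16, 4.73 and 4.71 in the wild types. Wild type 1 was the high array, and the other 5 lay close together. The difference was -0.13 (SE 0.14, 95% interval -0.47 to 0.20, limma adjusted p = 0.624), and 0.01 without wild type 1. The catalogue probe, which reads another site, had the same high array, with levels of 2.57, 2.56 and 2.55 in the knockouts against 3.00, 2.40 and 2.48 in the wild types.

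Slc40a1, the iron exporter ferroportin, was the gene with the lowest adjusted p of the 9. Its catalogue probe had levels of 1.43, 1.48 and 1.53 in the knockouts, against 1.35, 1.01 and 1.16 in the wild types. Every knockout array was above every wild type array. The difference was 0.31 (SE 0.11, 95% interval 0.04 to 0.58), or 1.24-fold higher in the knockout, with a limma unadjusted p of 0.029 and an adjusted p of 0.314; with the slide as a block it was 0.26. On the custom probe the levels were 2.12, 2.12 and 2.04 in the knockouts, against 2.16, 1.65 and 1.84 in the wild types. Wild type 1 was the highest of the 6 there, so the groups overlapped, and the difference was 0.21 (SE 0.14, limma adjusted p = 0.465). Leaving out 1 array at a time moved the custom probe between 0.09, without wild type 2, and 0.35, without wild type 1.

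Bdh2, a short-chain dehydrogenase described as making a mammalian siderophore, had levels of -1.86, -1.80 and -1.93 in the knockouts on the catalogue probe of the shared site, against -0.99, -0.91 and -0.88 in the wild types. The custom probe of that site had levels of -1.82, -1.89 and -1.87 in the knockouts, against -1.15, -0.72 and -0.76 in the wild types. Both probes put every knockout array below every wild type array, knockout 1 on the wild types' slide included. The means of the custom probe were -1.86 ± 0.04 in the knockouts and -0.88 ± 0.23 in the wild types (SD, n = 3 each), so the signal was 1.98-fold lower in the knockout; on the catalogue probe it was 1.91-fold lower. With the slide as a block the log2 differences were -0.94 and -0.93. Another background correction, normexp, brought the custom probe's difference to -0.59. In the junction probe, whose sequence is the second one printed above, the levels were -5.21, -4.41 and -4.19 in the knockouts, against -3.94, -4.80 and -5.05 in the wild types. That probe was well above background on only 2 of 3 arrays of each genotype, was not tested, and had a mean difference of -0.01. The lower signal of Bdh2 thus rests on 1 site of the transcript, read by 2 overlapping probes.

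Lcn2, which binds iron-loaded siderophores, had levels of -1.27, -2.12 and -1.71 in the knockouts on its custom probe, against -1.92, -0.47 and -0.27 in the wild types. Wild types 2 and 3 were high, while wild type 1 lay among the knockouts. The difference was -0.81 (SE 0.46, 95% interval -1.92 to 0.29, limma adjusted p = 0.403), and -0.38 with the slide as a block. It was -1.33 without wild type 1 and -0.51 without wild type 3, so its size depended on which arrays were used. The catalogue probe was well above background on 2 of 3 arrays of each genotype and was not tested; its levels were -3.26, -6.93 and -4.65 in the knockouts, against -6.24, -2.18 and -1.98 in the wild types, with r = 0.956 to the custom probe.

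Markers of neutrophils, a cell type that releases Lcn2, also varied widely between arrays of the same genotype. The summed linear level of 6 of 6 neutrophil markers (S100a8, S100a9, Ngp, Camp, Ltf and Elane) was 17.1, 2.59 and 5.94 in the knockouts, against 1.53, 12.8 and 25.7 in the wild types. Wild type 1 and knockout 2 had the lowest sums and also the lowest Lcn2 levels, and wild type 3 had the highest of both. Knockout 1 broke this order. Its sum was above that of wild type 2, but its Lcn2 level was below, at -1.27 against -0.47 on the custom probe. None of the 6 markers was at background on every array, 0 passed adjustment, and their median difference was -0.26 (1.15 with the slide as a block). With the slide as a block Lcn2's custom probe differed by -0.38, in the other direction. Astrocytes, the other source named above, had a median marker difference of 0.00, and -0.18 with the slide as a block, with 3 genes above 0 and 3 below. Gfap, named after its values were seen, had the lowest, -0.49 (limma adjusted p = 0.362), and -0.87 with the slide as a block. Its groups overlapped. The part of either cell type in the Lcn2 signal was not tested. In whole tissue, fewer cells of a type and less RNA per cell cannot be told apart.

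**Figure D4:**
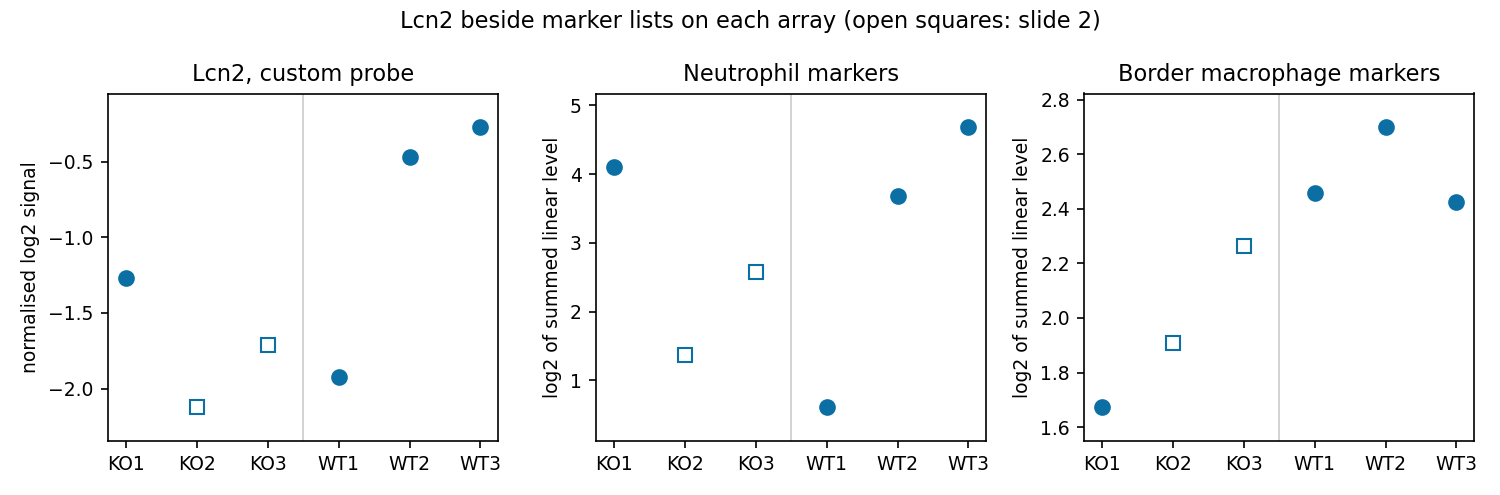
Normalised log2 signal of Lcn2's custom probe (left), log2 of the summed linear level of 6 neutrophil markers (middle) and of 6 border macrophage markers (right) on the knockout (KO) and wild type (WT) arrays (x axis); open squares are slide 2. Lcn2 and the neutrophil sum are both low on wild type 1 and high on wild type 3. Knockout 1 lies above wild type 2 in the neutrophil sum but below it in Lcn2. The macrophage sums of the 3 knockouts lie below those of the 3 wild types.

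Macrophages of the brain's borders, which take up and break down heme, had lower marker levels in the knockouts. The summed level of 6 of 6 border macrophage markers was 3.19 to 4.80 in the knockouts, against 5.37 to 6.50 in the wild types. The median difference was -0.66, and -0.90 with the slide as a block; 5 of the 6 had an unadjusted p under 0.05 in the lower direction (9.38% of coding genes), and 0 passed adjustment. Cd163, the receptor for hemoglobin bound to haptoglobin, is one of the 6 and also one of the scavenging genes below; named after its values were seen, it had levels of -1.003, -1.01 and -0.73 in the knockouts, against -0.42, 0.22 and -0.19 in the wild types. The part of these cells in the custom Hmox1 reading was not tested. Sums of meningeal fibroblast markers, at 24.3 to 29.5 in the knockouts and 29.6 to 44.2 in the wild types, and of endothelial markers, at 58.9 to 64.9 in the knockouts and 68.5 to 75.5 in the wild types, also did not overlap, with median differences of -0.40 and -0.02 (-0.59 and -0.14 with the slide as a block). In the endothelial list only Ly6c1 had groups that did not overlap, at a difference of -0.36. Of all coding genes, 12.8% were lower without overlap, and the sums of lists have no such background share. Flt1 differed by -0.11, and Cldn5, Pecam1, Cdh5 and Slco1a4 lay between -0.02 and 0.06. Striatal neuron markers, which mark a neighbouring brain region, had sums of 31.8 to 32.4 in the knockouts and 32.6 to 34.3 in the wild types; Drd2, Adora2a and Rgs9 had an unadjusted p under 0.05 in the lower direction, with differences of -0.43, -0.53 and -0.37 (-0.18, -0.25 and -0.23 with the slide as a block). Of these 3 lists 0 genes passed adjustment; Ly6c1 and the striatal genes are named after their values were seen, and the part of these cells in the heme and iron genes was not tested. Markers of red cells, which carry most of the body's heme, lay the other way. The summed level of the 6 tested of 7 was 836 to 987 in the knockouts and 624 to 808 in the wild types. The median difference was 0.30, and 3 of the 6, all globin genes, had an unadjusted p under 0.05 in the higher direction (2.92% of coding genes), while Slc4a1, the anion exchanger of the red cell membrane, had a difference of -0.08. Microglia, the other iron-handling macrophages of brain, had a median marker difference of -0.06 (-0.10 with the slide as a block), with sums of 158 to 177 in the knockouts and 164 to 183 in the wild types. Oligodendrocytes, which hold much of the brain's iron, had a median of -0.04 (-0.16 with the slide as a block), with sums of 238 to 280 in the knockouts and 230 to 289 in the wild types.

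The wider heme and iron pathway was taken as 5 lists of 68 genes, each gene read by its tested probe of the highest mean. All 68 were tested, and 0 passed an adjusted p of 0.05, beside 0.0172% of the 17439 coding genes tested. Without adjustment, 2 were higher (2.92% of all coding genes) and 8 lower (9.38%) in the knockout at p under 0.05, 14.7% of the lists beside 12.3% of all coding genes. The groups did not overlap for 6 higher (6.45% of coding genes) and 11 lower genes (12.8%), or 17 of 68 beside 19.3% of coding genes. The median difference was -0.03, against 0.00 for all coding genes.

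Heme synthesis (9 genes) had a median of 0.07, and -0.04 with the slide as a block. Alas1, the rate-limiting enzyme outside the red cell lineage, had means of 4.05 ± 0.19 in the knockouts and 3.89 ± 0.04 in the wild types (SD, n = 3 each). Its difference of 0.16 turned to -0.04 with the slide as a block, and its other probes differed by -0.32 and 0.11. Alas2, the red cell form, had the highest difference of the list, 0.57 (SE 0.19, limma adjusted p = 0.309), with 0.79 on its other probe; its groups did not overlap, as with 3 globin genes above, and the part of red cells in it was not tested. Fech, which inserts iron into the heme ring, had the lowest, -0.74 (SE 0.24, limma adjusted p = 0.309), but its other probes gave 0.24 and -0.42.

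Heme transport and scavenging (13 genes) had a median of -0.04, and -0.10 with the slide as a block. Hpx, the plasma protein that binds free heme, had levels of -2.34, -1.97 and -2.20 in the knockouts, against -2.60, -2.77 and -2.86 in the wild types. That was the highest difference of the list, 0.57 (SE 0.13, limma adjusted p = 0.307), with 0.45 on its other probe and 0.41 with the slide as a block. Hp, haptoglobin, which binds free hemoglobin, had the lowest, -0.99 (SE 0.52, limma adjusted p = 0.383), and -0.11 with the slide as a block. Its levels were -1.96, -3.28 and -3.29 in the knockouts, against -2.79, -1.64 and -1.14 in the wild types, so wild type 1 was again low and knockout 1 again high within its genotype.

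Iron uptake and export partners (15 genes) had a median of -0.11, and -0.03 with the slide as a block. Cybrd1, a ferric reductase, had levels of -3.36, -2.70 and -2.82 in the knockouts, against -2.19, -1.88 and -1.80 in the wild types. Its difference of -1.002 (SE 0.20, limma unadjusted p = 0.0019, adjusted p = 0.307) was the lowest of the list and was -1.40 with the slide as a block. Its groups did not overlap, and its other probes gave -1.27 and -0.29. Cp, ceruloplasmin, the ferroxidase that works with ferroportin, had levels of 0.18, 0.12 and 0.46 in the knockouts, against 0.89, 1.17 and 0.79 in the wild types. That difference was -0.70 (SE 0.15, limma unadjusted p = 0.0024, adjusted p = 0.307), with -0.38 and -0.36 on its other probes and -0.78 with the slide as a block. Trf, transferrin, differed by -0.20 on one probe (-0.05 with the slide as a block) and 0.02 on the other. Slc22a17, a receptor for lipocalin 2, differed by 0.10 (SE 0.10, limma adjusted p = 0.608) and by 0.33 and 0.22 on its other probes; with the slide as a block the first value was 0.00. Steap4, another metalloreductase, had the highest difference of the list, 0.52 (SE 0.42), and 0.29 with the slide as a block. It was well above background on only 2 of 3 wild type arrays, so it was tested through the genotype where it read higher. Its levels were -4.44, -3.94 and -4.24 in the knockouts, against -4.04, -5.73 and -4.42 in the wild types, and its other probes were not tested.

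Iron sensing and storage partners (12 genes) had a median of -0.07, and -0.11 with the slide as a block. Aco1, an iron regulatory protein, differed by 0.10 (SE 0.13), which turned to -0.12 with the slide as a block, and its other probes gave -0.60 and 0.08. Ireb2, the other one, differed by -0.04 (SE 0.09), and its further probes gave 0.06, 0.03 and -0.38. Ncoa4, the receptor that delivers ferritin for breakdown, had the highest difference of the list, 0.12 (SE 0.10), and its other probes gave 0.10 to 0.15. With the slide as a block its sign turned, to -0.03. Bach1, the heme-sensing repressor of Hmox1, differed by -0.15 (SE 0.11, limma adjusted p = 0.49), and by -0.30 with the slide as a block. Tmprss6, a protease that restrains hepcidin in liver, had the lowest, -0.75 (SE 0.19, limma adjusted p = 0.307), with -0.57 on its other probe and -0.50 with the slide as a block. Mitochondrial iron and iron-sulfur assembly (19 genes) had a median of -0.02, and -0.06 with the slide as a block. On the probe of the highest mean per gene its range was the narrowest of the 5 lists, from Nfu1 at -0.16 to Iba57 at 0.23, and 0 of its genes had an unadjusted p under 0.05. Iba57's other probes gave 0.22 and -0.70, and its first value was 0.04 with the slide as a block. Both are assembly factors of mitochondrial iron-sulfur clusters.

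**Figure D5:**
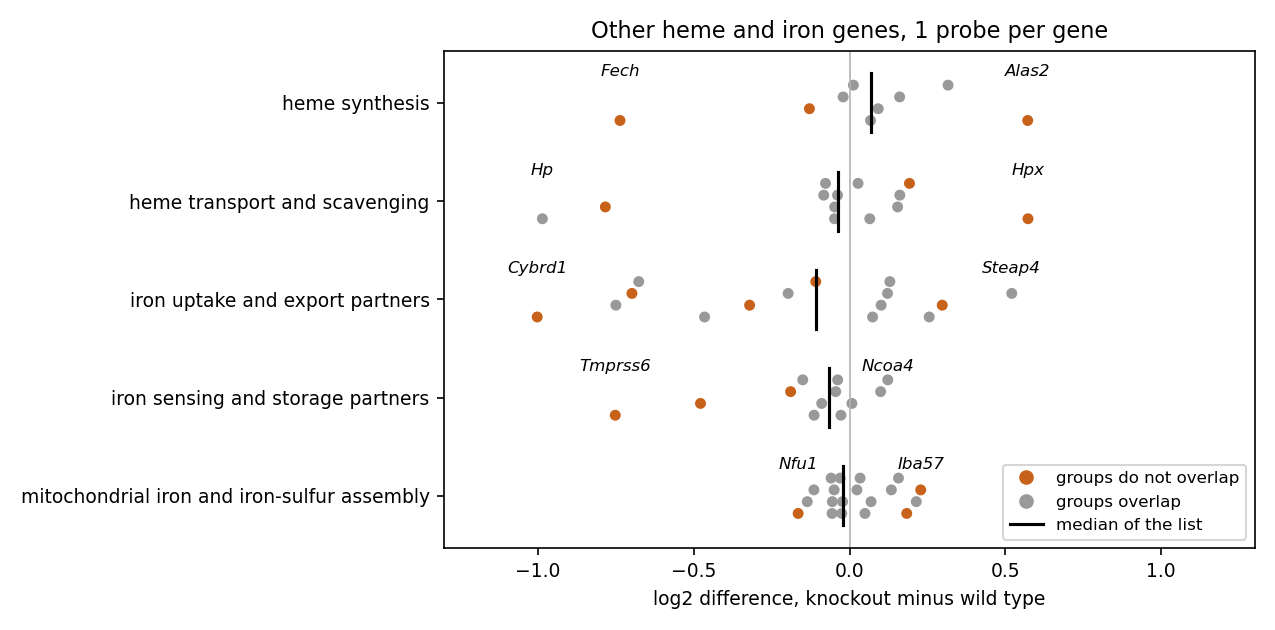
Log2 difference between knockout and wild type (x axis) of the 68 genes of 5 heme and iron lists (rows), 1 point per gene with the median as a black line. Orange points are genes whose groups do not overlap; the extremes of each list are named, from Cybrd1 at -1.002 to Alas2 and Hpx at 0.57.

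The array also holds circular RNA probes, and 11 of them lie inside these genes: 7 in Tfrc, 2 in Hmox2 and 2 in Fth1. The files do not state the build of their positions, which were read as GRCm38: of 37852 circular RNA probes, 97.3% fall within coding genes of that build and 35.9% do so once moved by 1 Mb. In the fit, 0 of the 11 passed adjustment (0.00289% of circular RNA probes did), and 2 had an unadjusted p under 0.05 (14.8% did), both in Hmox2. The circle at chr16:4762559-4766188 had levels of 0.24, 0.33 and 0.33 in the knockouts, against 0.05, 0.13 and 0.05 in the wild types. Its groups did not overlap (23.3% of circular RNA probes), and the difference was 0.22 (SE 0.08, limma adjusted p = 0.32), or 0.16 with the slide as a block. The circle at chr16:4762559-4763846 starts at the same base and differed by 0.22 (SE 0.09, limma adjusted p = 0.328), or 0.14 with the slide as a block. Hmox2's linear probes, as given above, turned sign with the slide as a block. Of the 7 Tfrc circles, 6 were highest on wild type 1, as were both linear probes.

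Across the 6 arrays, the genes whose pattern was most like Bdh2 (mean of its 2 tested probes) among 16789 coding genes compared were Rnf40 (Pearson r = 0.999, difference -0.18), Gstm3 (r = 0.997, difference -1.58) and Aox1 (r = 0.996, difference -2.06). Rnf40 encodes a ubiquitin ligase of histone H2B, Gstm3 a glutathione transferase and Aox1 an aldehyde oxidase. For Lcn2 they were Vps11, N4bp1 and Sytl1 (r = 0.99, 0.986 and 0.984), and for Hmox1 Dpt, Arl13b and Gapvd1 (r = 0.997, 0.993 and 0.988). Hmox1 was likewise taken as the mean of its 2 probes. These correlated at only r = 0.214 with each other, so genes like their mean need not follow either probe. With 6 arrays such values are common: 86 genes exceeded r = 0.95 with Bdh2, 64 with Lcn2 and 33 with Hmox1. Bdh2 was chosen as lower in the knockout on these arrays, so genes that split the genotypes rank high with it by that choice. Shared regulation was not tested.

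Promoters were searched for a loose form of the core of the antioxidant response element that Nrf2 binds. This form was written TGANNNNGC and sought on both strands of the 250 bases before each RefSeq start (GRCm38.p6). It was present in 35.2% of 32851 promoters, and in 3 of the 13 promoters of the 8 genes matched, those of Blvra and Blvrb. Hmox1 and Slc40a1 had no entry and were not searched. The narrower form TGACNNNGC, a subset of the first, was in 10.2% of promoters and, among the 8 genes searched, in Blvra alone. In the windows below, on the strand of the gene, capitals mark the match, which lies on the opposite strand in both. The Blvra window is chr2:127070598-127070626 and the Blvrb window chr7:27447899-27447927 (GRCm38.p6).
Blvra, before the start: cacgggaattGCTCGGTCAaggctccgcc
Blvrb, before the start: tgactcctccGCCTACTCAtgctctttcc
The Blvrb match is of the loose form only. A match says only that these letters are present in this window. Of these genes, Blvra differed by less than 0.1 log2 units on both probes, and Blvrb's differences were -0.62 and -0.34, or -0.02 and -0.11 with the slide as a block.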

How the data were processed

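The deposited arrays hold one-colour Agilent scanner intensity values; per the file headers they were made with Feature Extraction 12.0.3.1, whereas version 10.7, along with limma, is what the submitters' processing notes give. The processed intensity is background-subtracted by that software, per the file headers, and its log2 minus each array's 75th percentile was computed here. The authors' deposited value table holds log2 values that match a quantile normalisation of the processed signal; it served as an alternative. Control spots and spots with an outlier flag were left out. Probes well above background on all 3 arrays of at least 1 genotype were tested with limma 3.58.1 (R 4.3.3), knockout minus wild type, with Benjamini-Hochberg adjustment over all 105922 and a threshold of 0.05, and the code was tested on simulated data. Alternatives were normexp with an offset of 50, quantile normalisation, the authors' table, other filters, the slide as a block, slide 1 alone, a replicate block, and leaving out each array. Depth of arrays is not counted; 3 arrays a genotype limit the precision. Levels are summed as linear values over 1 probe per gene for marker lists. In each pathway list, the genes named were those of the highest and lowest difference plus Alas1, Bach1, Trf, Aco1, Ireb2, Ncoa4, Cp and Slc22a17; for likeness, the 3 of the highest r. The members and lists were chosen with earlier results of these data known. Probe sequences and mm9 positions are those of the array files; promoters are from RefSeq, GRCm38.p6.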

Additional observations from a re-analysis of the deposited data

How the results depend on the processing

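Over all tested probes, 10 passed the threshold, against 16 with normexp, 4 where all 6 arrays had to be well above background, 4 within slide 1 and 2 with the replicate block. The replicate numbers do not pair the samples: same-numbered samples' deviations correlated at -0.01, -0.05 and 0.04. Leaving out 1 array gave 5 to 13558 probes; the highest was without knockout 1, when slide and genotype coincide, and without wild type 1 there were 50. Probes of the 9 genes passed in 0 cases under every setting except 1 without knockout 1 (range 0 to 1), Blvrb's catalogue probe. For the 68 pathway genes the range was 0 to 5, and the 5 without knockout 1 were Hpx, Steap1, Cybrd1, Lrp2 and Tmprss6. In that fit 12.8% of all tested probes passed, and slide and genotype could not be told apart. Steap1 and Lrp2 were well above background on only 2 of 3 knockout arrays. Of 89 values of the 10 genes under the 9 alternatives that keep all arrays or a slide, 85 kept direction and side of the threshold. Each gene was counted by its tested probe of the highest mean, or by the mean of its tested probes where these were averaged. Bdh2, chosen for being lower, is among them. The slide block and slide 1 alone gave the same differences, so they are not separate checks. Some probes not counted here also turned sign with the slide as a block. They were the catalogue probes of Hmox1 (-0.03), Blvra (-0.06) and Ftl1 (-0.17), and Hmox2's custom probe (-0.19). Hmox2 turned to -0.10 with the slide as a block and to -0.10 within slide 1. Fth1 turned to 0.39 in the authors' table, which keeps the flagged spot of wild type 1, and Bdh2 was -0.59 with normexp. Without 1 array Blvra ranged from -0.038 to 0.039 and Tfrc from -0.21 to 0.013. The custom probes of Hmox1 (-0.31 to -0.19), Slc40a1 (0.09 to 0.35), Blvrb (-0.45 to -0.25) and Lcn2 (-1.33 to -0.51) kept their sign. Bdh2, chosen for its lower signal on these arrays, ranged from -1.12 to -0.91, which is no check of its direction. Signal over background limits the junction probe of Bdh2 and the catalogue probe of Lcn2.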
